A study of Mus musculus with 23 samples.

Results

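The genes described here are 10 transcription factors of the intestinal secretory lineages: Atoh1, Gfi1, Spdef, Creb3l1, Sox4, Neurog3, Neurod1, Insm1, Rfx6 and Fev. They were chosen by name, as factors known from the biology of goblet, Paneth and enteroendocrine cells, with earlier results of these data known. All 10 were found among the 22517 named genes of both deposited tables. The study asked how Polycomb repressive complex 2 (PRC2), which places the repressive histone mark H3K27me3, acts in adult mouse intestinal epithelium. RNA was sequenced in 3 groups of 3 libraries. Wild-type villus came from Cre-negative EedF/F mice, so that these controls carried the floxed alleles of Eed, a core PRC2 subunit, without deletion. Eed-null villus came from EedF/F mice with Villin-CRE, in which Cre is driven by the promoter of an epithelial gene. ISC were Lgr5+ intestinal stem cells with high GFP, sorted from Eed+/+ mice that carry Lgr5-EGFP-IRES-CREERT2, an allele that marks stem cells by GFP. All mice were adults of a mixed B6;129 background, the tissue was the proximal intestine, and the protocol for all 3 groups lists 1 to 2 mg tamoxifen on 5 days. The labels give no sex and no further age.

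Absorptive and secretory cells of the gut arise from the same crypt stem cells. Notch signalling favours the absorptive fate by holding down Atoh1, the bHLH factor that commits a progenitor to the secretory fate. Below Atoh1, Gfi1 and Spdef act in goblet and Paneth cells, whereas Neurog3 starts the enteroendocrine programme that Neurod1, Insm1, Rfx6 and Fev carry on. Sox4 acts in secretory and endocrine progenitors, and Creb3l1 is a membrane-bound factor of the secretory pathway.

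Each table gives 1 RPKM value (reads normalised to gene length and library size) per group, made by the authors from 3 libraries. The value of a single library, the spread between libraries and the depth of each library are therefore unknown here, and the authors' q is the error measure behind every call. A gene is called where the authors tested it and listed a q at or below 0.05, and all 10 factors were tested in both tables. Levels of the 3 groups were set on the scale of the ISC table through the shared wild-type villus column, which differs between the tables by the constant factor 1.16193. For the targeted gene, Eed, the authors' deposited table lists 9.17 RPKM in wild-type and 3.00 RPKM in Eed-null villus (q = 6.29e-06). The labelled cell types carried their defining markers: Lgr5 stood at 18.3 RPKM in ISC against 0.607 in wild-type villus, and the enterocyte phosphatase gene Alpi at 15.8 against 1146 RPKM, per the authors' deposited table. The mesenchymal collagen gene Col1a1 was at most 0.0910 RPKM in any group of the authors' deposited tables.

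The 2 factors with the largest difference between ISC and villus were Neurog3 and Sox4, and their promoters are shown for that reason. These are the 250 bases before the RefSeq transcription start on build GRCm38.p6, written on the strand of the gene, with each E-box (CANNTG, the core bound by bHLH factors) in capitals. The Neurog3 window is chr10:62132840-62133089 on the plus strand and the Sox4 window chr13:28953700-28953949 on the minus strand.
Neurog3: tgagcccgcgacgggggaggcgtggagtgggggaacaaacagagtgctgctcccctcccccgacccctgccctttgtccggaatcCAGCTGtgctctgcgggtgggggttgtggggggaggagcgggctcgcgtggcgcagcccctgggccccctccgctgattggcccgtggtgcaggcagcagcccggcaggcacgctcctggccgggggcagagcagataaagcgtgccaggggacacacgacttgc
Sox4: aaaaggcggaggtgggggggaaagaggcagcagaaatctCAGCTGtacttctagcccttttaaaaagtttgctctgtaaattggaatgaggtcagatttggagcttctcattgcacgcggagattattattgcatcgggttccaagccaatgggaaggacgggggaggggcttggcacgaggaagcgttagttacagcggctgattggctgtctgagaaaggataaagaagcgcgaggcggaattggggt
Each window held 1 E-box, and in both it was CAGCTG, a palindrome that both strands share, 165 bases upstream of the start in Neurog3 and 211 bases upstream in Sox4. CAGCTG was present in 13.0% of the 32851 promoters of the RefSeq table and any E-box in 66.2%. Promoter sequence was found for 8 of the 10 factors, and in 5 of the 8 it lay before the outermost RefSeq start of the gene. The Atoh1 window, at chr6:64728875-64729124 on the plus strand, held no E-box, and neither did those of Spdef, Rfx6 and Fev. Neurod1 held 1 and Gfi1 held 1 at each listed start, none of them CAGCTG. CpG dinucleotides numbered 22 in the Neurod1 window, 18 in Neurog3, 14 in Atoh1, 13 at the outer start of Gfi1 and 11 in Sox4, against a median of 6 over all promoters of the table. At starts inside the gene they numbered 22 in Fev, 9 in Gfi1, 7 in Spdef and 2 in Rfx6. These matches describe letters only, since chromatin data of the series were not analysed here.

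In wild-type villus Spdef, Atoh1 and Creb3l1 stood highest. Spdef, an Ets-family factor of goblet and Paneth cell maturation, had 10.5 RPKM, Atoh1 had 9.06 RPKM and Creb3l1 5.84 RPKM per the authors' deposited table. Sox4 (1.92 RPKM), Neurod1 (1.88 RPKM) and Gfi1 (1.43 RPKM) followed per the authors' deposited table. The 4 lowest were Neurog3 at 0.663, Insm1 at 0.633, Fev at 0.461 and Rfx6 at 0.437 RPKM per the authors' deposited table, so that the highest and lowest factor were 24.0-fold apart. Spdef lay above 58.2% of the genes tested in that group and Rfx6 above 10.1%. With no spread between libraries, neighbours in this order cannot be separated.

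ISC had another order, in which 4 factors reached similar levels at the top. Spdef had 17.8 RPKM, Sox4 17.2 RPKM, Creb3l1 15.6 RPKM and Neurog3 15.4 RPKM per the authors' deposited table. Neurog3, seventh in wild-type villus, thus stood beside Spdef in ISC. Atoh1 was at 7.40 RPKM, and Neurod1 (3.84), Insm1 (2.80), Rfx6 (2.79), Fev (1.98) and Gfi1 (1.57) completed the ISC order in RPKM of the authors' deposited table. The range from highest to lowest narrowed to 11.3-fold.

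**Figure D1:**
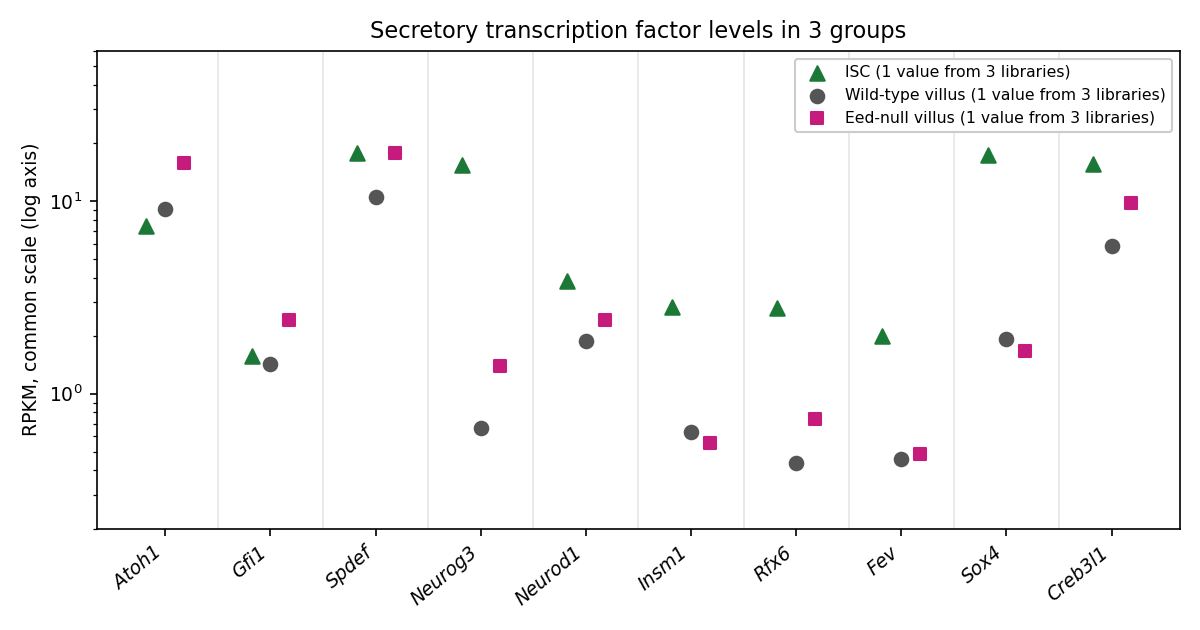
RPKM of each factor on a log axis in ISC (triangles), wild-type villus (circles) and Eed-null villus (squares), with 1 value from 3 libraries per point, no spread available, and the Eed-null values multiplied by 1.16193 to share the scale. ISC lies above both villus groups in Neurog3, Neurod1, Insm1, Rfx6, Fev, Sox4 and Creb3l1, whereas Eed-null villus is the highest point in Atoh1 and Gfi1.

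Against wild-type villus, 8 of the 10 factors were called higher in ISC and none lower. Over all 13007 genes tested, 32.3% were called higher in ISC and 30.5% higher in wild-type villus. The factors' median difference of log2(RPKM + 1), ISC minus villus, was 1.12, beside 0.06 over all tested genes. The 2 factors that were not called were Atoh1 and Gfi1, the initiator of the secretory fate and a zinc-finger repressor acting below it. At an unadjusted p under 0.05 the counts were also 8 higher and 0 lower, with no share over all tested genes computed at that threshold.

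Among factors of the enteroendocrine branch, every one of the 5 was called higher in ISC. Neurog3 stood at 15.4 RPKM in ISC against 0.663 RPKM in villus, a 23.2-fold ratio that the authors' deposited table lists with q = 0. Its log2 ratio of 4.54 exceeded that of 98.2% of the tested genes. Rfx6, a winged-helix factor needed for endocrine cell formation, had a 6.39-fold ratio (2.79 against 0.437 RPKM, q = 2.76e-10 per the authors' deposited table). Insm1, a zinc-finger factor of endocrine differentiation, was 4.43-fold higher (2.80 against 0.633 RPKM, q = 3.34e-07 per the authors' deposited table). Fev, known for serotonin-producing cells, followed at 4.30-fold (1.98 against 0.461 RPKM, q = 3.31e-04 per the authors' deposited table). Neurod1, a bHLH factor that is switched on by Neurog3, had the smallest ratio of the branch at 2.04-fold (3.84 against 1.88 RPKM, q = 0.00747 per the authors' deposited table). The branch thus ran from 2.04-fold to 23.2-fold, with its initiator at the upper end.

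The other factors called higher in ISC were Sox4, Creb3l1 and Spdef. Sox4 was 8.96-fold higher, at 17.2 against 1.92 RPKM, with q listed as 0 per the authors' deposited table. Creb3l1 was 2.67-fold higher, at 15.6 against 5.84 RPKM with q = 4.12e-07 per the authors' deposited table. Spdef was 1.70-fold higher, at 17.8 against 10.5 RPKM with q = 0.00585 per the authors' deposited table. Atoh1 was at 9.06 RPKM in villus and 7.40 RPKM in ISC (q = 0.367), and Gfi1 at 1.43 RPKM in villus and 1.57 RPKM in ISC (q = 0.805), per the authors' deposited table.

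Villus was frozen after release with EDTA, while ISC were also dissociated with enzyme and sorted. The groups also differed in their Eed alleles and in the Lgr5-EGFP-IRES-CREERT2 allele. Cell type, handling and genotype therefore cannot be told apart in this comparison. Markers of secretory cells moved with it in different directions. The Paneth cell list had 4 tested genes, each called higher in ISC, and without Lyz1 its genes summed to 6444 RPKM in ISC against 2618 RPKM in wild-type villus. Lyz1 carries the status HIDATA in this comparison and was not tested. Its listed 0 in ISC is therefore not taken as a measured level. Of 10 goblet cell markers, 2 were called higher in ISC and 5 higher in villus, with sums of 5798 and 13751 RPKM. Of 18 tested enteroendocrine markers, 6 were called in each direction, and their 19 genes summed to 410 RPKM in ISC and 645 RPKM in villus. Chga, the granule protein common to many endocrine cells, was at 46.0 against 31.3 RPKM in villus (q = 0.0258), per the authors' deposited table. The tuft cell list had 7 of 9 genes called higher in villus, among them Dclk1 at 4.04 against 0.591 RPKM (q = 1.05e-10), per the authors' deposited table. The stem cell list had 10 of 10 genes called higher in ISC. Leukocyte markers, which matter here because Gfi1 also acts in blood cells, summed to 23.9 RPKM in ISC and 114 RPKM in villus. Nerve and glia markers, given because Insm1 and Fev are also expressed in neurons, had 3 of 10 genes tested and summed to 1.67 RPKM in ISC and 0.772 RPKM in villus. Mesenchyme markers had 2 of 10 genes tested and summed to 8.05 RPKM in ISC, of which Vim made up 7.72, and to 2.08 RPKM in villus. The part of these cells in the factors' levels was not tested. In bulk RNA, more cells of a type and more RNA per cell cannot be told apart.

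Eed-null villus had higher values than wild-type villus in 8 of the 10 factors, of which 2, Atoh1 and Spdef, were called. Over all 12525 genes tested, 42.3% had a higher value in Eed-null villus. Of the same genes, 7.90% were called higher in Eed-null villus and 3.46% higher in wild-type villus. None of the 10 factors was called lower. At an unadjusted p under 0.05 the counts were 5 higher and 0 lower, but the share of all tested genes at that threshold was not computed. The factors' median difference of log2(RPKM + 1), Eed-null minus wild-type, was 0.35, beside -0.06 over all tested genes, and 0.66 with 0.1 in place of 1 as the pseudocount. This comparison shares its wild-type villus libraries with the one against ISC. Cre activity and loss of Eed cannot be told apart in it.

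Atoh1 rose 1.74-fold, from 7.79 to 13.6 RPKM, with q = 0.0233 per the authors' deposited table. Spdef rose 1.68-fold, from 9.04 to 15.2 RPKM, with q = 0.0399 per the authors' deposited table. These ratios exceeded those of 88.5% and 87.7% of the tested genes. Gfi1 (1.67-fold, 2.06 against 1.23 RPKM, q = 0.212) and Creb3l1 (1.66-fold, 8.34 against 5.02 RPKM, q = 0.0687) had ratios of nearly the same size per the authors' deposited table and were not called. So did Rfx6, at 1.68-fold with 0.634 against 0.376 RPKM and q = 0.346 per the authors' deposited table. The 5 ratios from 1.66-fold to 1.74-fold thus differ less from each other than their q values do. Of the tested genes 1.5-fold to 2.2-fold higher in Eed-null villus, 56.2% were called where wild-type villus had 5 to 20 RPKM, 28.8% at 1 to 5 RPKM and 2.71% below 1 RPKM.

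Among factors of the enteroendocrine branch, none of 5 was called in either direction (q from 0.153 to 0.984 per the authors' deposited table). Neurog3 had the highest ratio of the 10 factors, 2.11-fold, from 0.570 RPKM in the controls to 1.20 RPKM without Eed (q = 0.153), per the authors' deposited table. Neurod1 had 2.08 against 1.62 RPKM (q = 0.677) and Fev 0.417 against 0.396 RPKM (q = 0.984) per the authors' deposited table. Insm1 was at 0.545 RPKM in the controls and at 0.476 RPKM without Eed (q = 0.898) per the authors' deposited table. Sox4, outside that branch, had 1.43 against 1.65 RPKM (q = 0.845) per the authors' deposited table. Insm1 and Sox4 were the 2 factors with lower values in Eed-null villus. Whether these ratios differ from those of Atoh1 and Spdef was not tested.

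**Figure D2:**
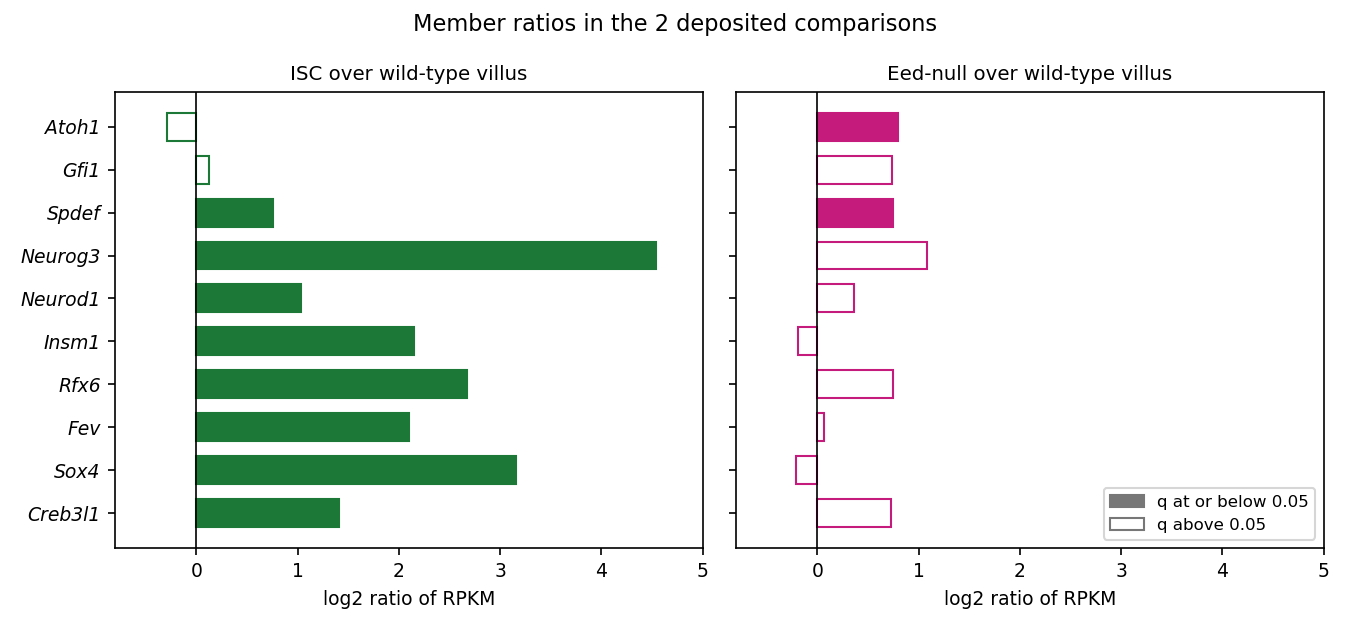
Log2 ratio of RPKM for each factor, ISC over wild-type villus on the left and Eed-null over wild-type villus on the right, on the same horizontal scale. Filled bars have q at or below 0.05 per the authors' deposited tables: 8 on the left, led by Neurog3 at 4.54, and Atoh1 (0.80) and Spdef (0.75) on the right.

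On the common scale, with no test across the tables, the factors fell at different distances from the ISC level. Spdef in Eed-null villus stood at 98.9% of its ISC level, against 58.9% in wild-type villus. Atoh1 in Eed-null villus was at 213% and Gfi1 at 153% of ISC. Creb3l1 (62.3%) and Neurod1 (62.8%) were lower than in ISC. The remaining factors were lower still, with Rfx6 at 26.4%, Fev at 24.4%, Insm1 at 19.7%, Sox4 at 9.66% and Neurog3 at 9.10% of the ISC level. Neurog3 in wild-type villus was at 4.31% of ISC.

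Some products of mature secretory cells were called higher in Eed-null villus too. Over all tested genes, 7.90% were called higher and 3.46% lower there. All 10 goblet cell markers had higher values and 4 were called, with sums of 11835 RPKM in the controls and 17605 RPKM without Eed, a ratio of 1.49. The mucin gene Muc2 rose 1.68-fold (q = 0.0346) and Agr2, a protein disulphide isomerase needed for mucin, 1.78-fold (q = 0.00534) per the authors' deposited table. Spdef and Atoh1 had 1.68-fold and 1.74-fold ratios in the same comparison. Spink4 rose 2.69-fold and Retnlb, an antibacterial goblet cell protein, 20.1-fold, from 7.66 to 154 RPKM per the authors' deposited table. Of 5 Paneth markers, 1 was called higher, Ang4 at 2.05-fold (q = 0.00202 per the authors' deposited table). Of 19 enteroendocrine markers, 5 were called higher, 1 lower and 13 not called. Their sum was 891 RPKM in Eed-null against 555 RPKM in wild-type villus, a ratio of 1.61. Gip made up 384 and 188 RPKM of these sums. The prohormone convertase gene Pcsk1 rose 2.77-fold, and the hormone genes Gip and Sst rose 2.04-fold and 2.12-fold, whereas Gcg fell 3.70-fold per the authors' deposited table. None of 9 tuft cell markers was called, with 8 higher in value and a ratio of sums of 1.11, and at the other end 3 of 10 enterocyte markers were called lower with a ratio of sums of 0.824. Leukocyte markers summed to 98.5 RPKM in the controls and 62.5 RPKM without Eed, with 1 of 8 tested, Gzmb, called lower. Of 10 stem cell markers 1, Olfm4, was called lower, 2.33-fold, per the authors' deposited table. Nerve and glia markers summed to 0.665 RPKM in the controls and 4.46 RPKM without Eed. Ret, the 1 gene tested, made up 3.50 RPKM of the latter and was called higher, 8.35-fold (q = 1.40e-11), per the authors' deposited table. Mesenchyme markers summed to 1.79 and 2.92 RPKM, with neither of 2 tested genes called. The part of cell numbers in the levels of Atoh1 and Spdef was not tested.

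**Figure D3:**
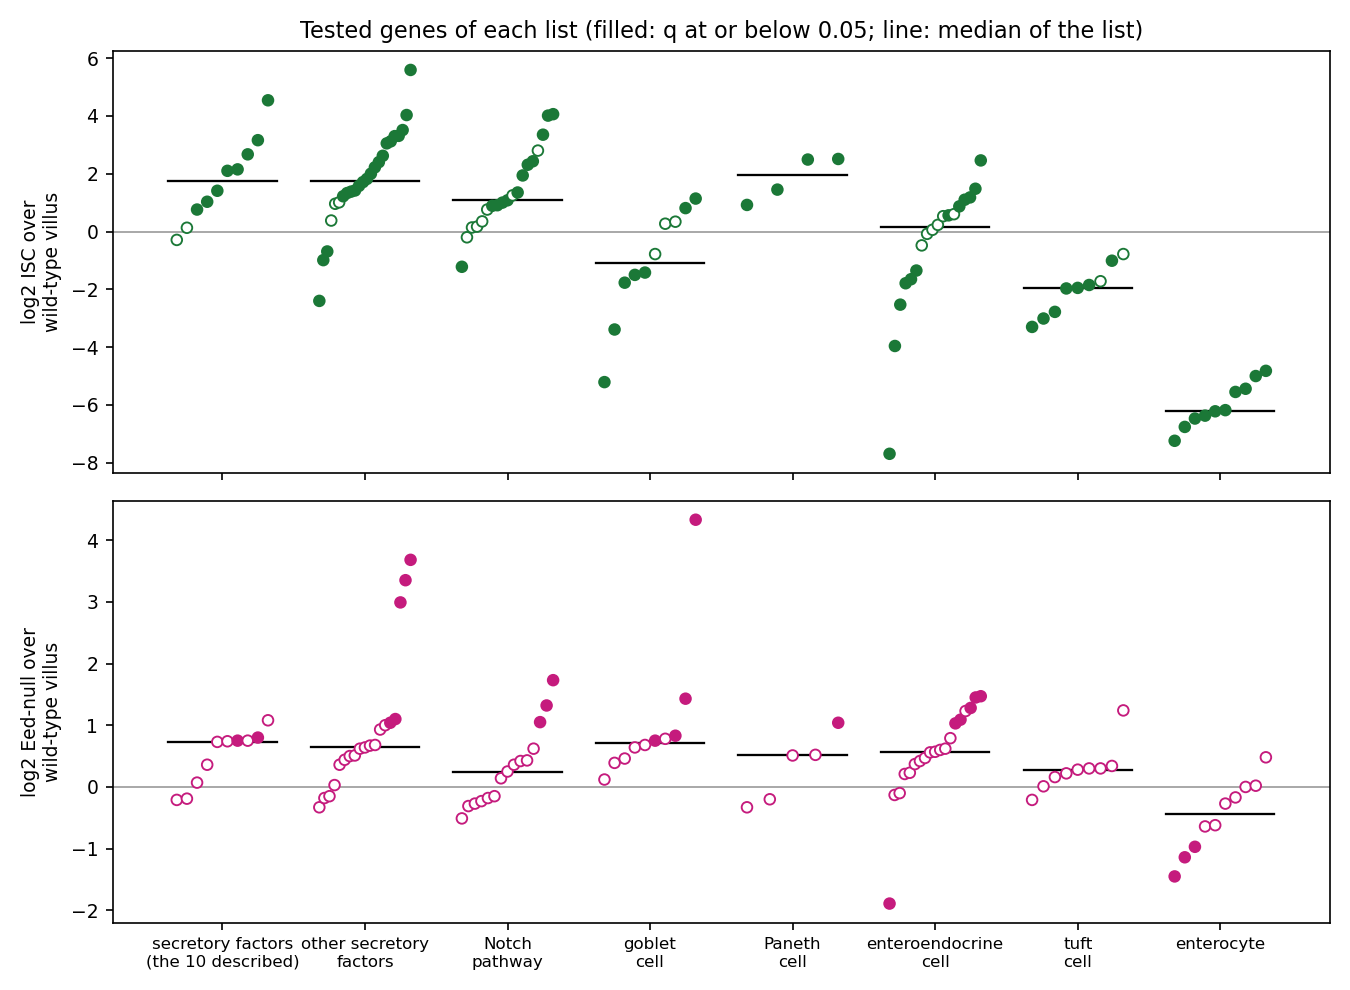
Log2 ratio over wild-type villus of every tested gene of 8 lists, for ISC (top) and Eed-null villus (bottom), with filled points at q of 0.05 or less and a line at the median of each list. The 10 factors have a median log2 ratio of 1.76 in ISC and 0.74 in Eed-null villus, and the goblet cell list lies below 0 at the median in ISC and above 0 throughout in Eed-null villus.

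Genes of the Notch pathway, which restrains Atoh1, were mostly higher in ISC: 11 of 19 tested were called higher there and 1 higher in villus. The receptor gene Notch1 had 0.918 RPKM in villus against 15.3 RPKM in ISC (q listed as 0), and Notch2 was 10.2-fold higher, per the authors' deposited table. Hes1, the repressor that acts on Atoh1 downstream of Notch, stood at 51.4 against 10.4 RPKM in villus (q listed as 0) per the authors' deposited table. The ligand gene Dll1, itself characteristic of secretory progenitors, had 18.6 and 14.5 RPKM (q = 0.169) and so, like Atoh1, was not called per the authors' deposited table. In Eed-null villus, 7.90% of all tested genes were called higher and 3.46% lower. Of 15 tested Notch pathway genes, 3 were called higher there and none lower. These were Notch1 (2.07-fold, q = 0.00603) and the ligands Jag1 (2.50-fold, q = 2.46e-04) and Jag2 (3.32-fold, q = 4.20e-04) of the authors' deposited table. Hes1 was at 8.94 RPKM in the controls and at 13.8 RPKM without Eed (q = 0.147) per the authors' deposited table.

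Of 30 further factors of secretory or endocrine cells, 24 were tested against ISC, with 18 called higher in ISC and 3 higher in villus. Those with the largest ISC excess were Neurod2, Mnx1, Pax4 and Runx1t1. Pax4, an endocrine lineage factor, had 1.98 against 0.174 RPKM and Mnx1, a homeobox factor, 5.29 against 0.323 RPKM per the authors' deposited table. Klf4, a goblet cell and differentiation factor, went the other way with 23.3 RPKM in ISC and 123 RPKM in villus (q listed as 0 per the authors' deposited table). In the Eed-null comparison 19 of the 30 were tested. Of these, 5 were called higher and none lower, beside 7.90% and 3.46% over all tested genes. Pax6, a paired homeobox factor of enteroendocrine cells, rose 12.8-fold from 0.333 to 4.26 RPKM (q = 5.41e-12 per the authors' deposited table). Etv4 rose 10.2-fold, Hhex 7.97-fold, Pdx1 2.15-fold and Sox9, a crypt and Paneth cell factor, 2.06-fold per the authors' deposited table. A member below 0.351 RPKM in wild-type villus was tested only if Eed-null villus was higher, which applies to Pax6, Etv4 and Hhex among the 5 called. All 10 factors described above had at least 0.376 RPKM in wild-type villus of that table.

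On build mm9 the 10 genes lie on chromosomes 1, 2, 5, 6, 10, 13 and 17, with Neurod1, Insm1 and Creb3l1 on chromosome 2 and Neurog3 and Rfx6 on chromosome 10. Atoh1 spans chr6:64679139-64681229, Neurog3 chr10:61595837-61597511, Sox4 chr13:29042598-29045551 and Spdef chr17:27851391-27865896. No other entry of the tables overlaps any of the 10, so their values share no listed locus although the libraries do not mark strand.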

How the data were processed

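Polyadenylated-RNA kit libraries (TruSeq V2) were read as 75 bp single-end reads, per the labels' protocols. The submitters' processing notes name Bowtie, TopHat2 2.0.6, Cufflinks 2.0.1, Cuffdiff and build mm9, without roles; which gene annotation was used is not given in the sources here. The authors deposited RPKM values, 1 per group and gene, in 2 tables; the Eed-null table names no unit, and RPKM was inferred because its wild-type villus values were a constant 1.16192 to 1.16194 times lower over 10353 genes at 1 RPKM or more. Each p-value and q-value is the authors' own, per the file headers. The depth per library is unknown, and no model was fitted. Folds are ratios of deposited RPKM values without a pseudocount. The entry naming no gene was left out. p-values were adjusted again only in alternatives, by Benjamini-Hochberg, with code tested on simulated data (Python 3.11.15, pandas 2.3.3). Promoters came from a RefSeq table on GRCm38.p6.

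The 10 members, the lists and the naming rule were chosen with earlier results of these data known. The rule covers all members, Eed, Lgr5, Olfm4, Alpi, Muc2, Chga, Lyz1 and Dclk1. It also covers up to 6 called genes per list in the Eed-null comparison and up to 4 per direction in the other. Last, it covers the 2 genes nearest to each member in both log2 ratios. Not every gene it covers is named in the text, with Cpe, Tac1, Apoc3, Treh, Lct, Zg16 and Nts among those left out. Nearest genes are given only for Atoh1, Sox4 and Neurog3. Col1a1, Vim, Hes1 and Dll1, and the bHLH partners and inhibitors not called, were named after their values were seen. The 14 chromatin and input libraries were not analysed here. p-values reflect only the libraries sampled, which the labels call biological replicates.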

Additional observations from a re-analysis of the deposited data

How the results depend on the processing

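The call of Atoh1 and Spdef in Eed-null villus rests on the threshold. With q at or below 0.01, or with a ratio of at least 2-fold required, 0 of the 10 factors were called higher, against 2. With at least 1 RPKM required in a group, both were still called (q from 0.0233 to 0.0244 for Atoh1 and from 0.0399 to 0.0419 for Spdef), and 3 factors, Insm1, Rfx6 and Fev, left the test. The Eed-null over ISC log2 ratio of Spdef on the common scale, -0.02, became 0.05 when centred on the median of genes at 1 RPKM or more. The count called higher in ISC went from 8 to 7 where 2-fold was required, with Spdef lost. The share of all tested genes called was not computed for any of these alternative settings, so the changed counts have no background beside them. With a pseudocount of 0.1 the factors' median difference moved from 0.35 to 0.66 in the Eed-null comparison and from 1.12 to 1.65 in that with ISC. A pseudocount of 1 lowered the Eed-null log2 ratio of Rfx6 from 0.75 to 0.25 and of Neurog3 from 1.08 to 0.49. Apart from Spdef on the common scale, no log2 ratio of a single factor changed sign. Over genes that reached 1 RPKM in both groups, the median log2 ratio was -0.10 in the Eed-null comparison and -0.02 in that with ISC. No paired analysis was possible because the tables hold 1 value per group, and for the same reason no library could be left out. Rfx6, Fev, Insm1 and Neurog3 lay below 1 RPKM in wild-type villus, and each was called higher in ISC. Among tested genes at that level, 2.71% of those 1.5-fold to 2.2-fold higher in Eed-null villus were called. That range holds Rfx6 and Neurog3, but not Fev and Insm1.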

Other observations

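Partners and inhibitors of bHLH factors differed between ISC and villus in both directions. The E-protein genes Tcf3 and Tcf12, partners of Atoh1 and Neurog3, were 2.86-fold and 2.04-fold higher in ISC (q = 3.38e-08 and 1.93e-05), while the inhibitors Id1 and Id3 were 1.67-fold and 1.66-fold higher in villus (q = 0.00218 and 0.00309) per the authors' deposited table. None of the 7 genes of this list was called in Eed-null villus, where Id4 was at 2.35 against 1.08 RPKM (q = 0.0551), per the authors' deposited table.

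The genes most like a factor in both log2 ratios over wild-type villus were sought among 11950 other genes tested in both tables that had no listed 0. For Atoh1 these were Slc38a9 and Osbpl5, at distances of 0.014 and 0.031 log2 units, and for Sox4 Kifc1 and Dut, at 0.027 and 0.063. For Neurog3 the nearest, Ifitm3 and Rgcc, were farther away at 0.246 and 0.264. The likeness rests on 2 ratios that share the wild-type villus libraries.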
